A study of Mus musculus with 24 samples.

Results

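The genes described here are 33 transcripts that mark the cells of the brain's small vessels, 28 of them used as markers of endothelium and 5 as markers of pericytes. They were taken by symbol from a list of known vascular markers, which was drawn up with earlier results of these data known, and were found among the 38355 genes of the count tables and in all 4 of the authors' deposited comparison tables. Poly(A) RNA was sequenced in 24 libraries from dissected CA1, a hippocampal subfield, of mice of the C57BL/6J strain at 3 to 5 months of age. Control animals were Kat2a fl/fl, with both copies of the lysine acetyltransferase gene Kat2a flanked by loxP sites. Conditional knockout (cKO) animals carried the same floxed alleles together with CamKII_alpha-cre+, a Cre recombinase driven by the CamKII-alpha promoter, which is known for activity in forebrain excitatory neurons and not in vessel cells. Each genotype was sampled naive, with no exposure, or after 15 min of novelty exposure, which gave 6 naive and 5 novelty libraries of control mice, and 6 naive and 7 novelty libraries of cKO mice. The floxed Kat2a alleles are thus common to all 4 groups, and the controls carried no Cre. The labels do not say that each library came from its own mouse, so the p-values measure the spread between these libraries, which may in part be technical.

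Endothelial cells line the vessel and, in brain, are joined by tight junctions and equipped with carriers and efflux pumps that together make the blood-brain barrier. Pericytes are embedded in the basement membrane on the outer face of the capillary and are recruited and held there by platelet-derived growth factor from the endothelium. Because both cell types are a small minority in CA1 tissue, their transcripts stand beside a large excess of neuronal and glial RNA, and in bulk tissue fewer cells of a type and less RNA per cell cannot be told apart.

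Each library held 10.7 to 35.8 M reads assigned to genes (median 19.0 M, where M stands for mega). Levels below are CPM, read counts divided by the TMM-adjusted library size in M reads, and a value after ± is the SD between libraries of the same group. Kat2a itself was at 63.6 ± 3.98 CPM in naive controls (n = 6) and 36.2 ± 2.42 in naive cKO mice (n = 6), and after novelty at 60.2 ± 3.57 (control, n = 5) and 35.1 ± 2.26 CPM (cKO, n = 7), with no overlap between genotypes. Counts cover the whole gene, and the labels do not say which part is deleted.

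All 33 genes were detected in every library, the lowest count being 18 reads, for Anpep. Defining endothelial transcripts were therefore present (Cldn5 at 10.3 to 24.7 CPM, Pecam1 at 12.5 to 20.0, Cdh5 at 7.84 to 11.9 and Flt1 at 45.3 to 71.8 over the 24 libraries), as were the pericyte transcripts Rgs5 (68.4 to 129 CPM) and Pdgfrb (17.6 to 26.2 CPM). Not every member is particular to vessels by what is known of it. Slc2a1, Slc16a1 and Slco1c1 are also expressed by astrocytes, so their bulk levels need not come from endothelium alone.

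Per kilobase of exon, the members spanned a wide range in control naive libraries. Itm2a, a type II membrane protein, had the highest level (27.3 ± 3.90 CPM per kb, SD, n = 6), followed by Rgs5 (24.1 ± 2.45) and Vtn, the adhesion protein vitronectin (22.3 ± 3.57). These were followed by Slc2a1, the glucose carrier of the barrier (16.1 ± 2.11), and Cldn5, the main claudin of its tight junctions (15.2 ± 1.97). In this order, Vtn and Slc2a1 differed by more than the sum of their SDs, and the other neighbours by less. Pltp, Ly6a, Slc16a1, Slco1c1 and Ly6c1 lay between 10.7 and 12.3 CPM per kb, and neighbours among them were within each other's spread. The middle of the range held Egfl7 (7.66), Slco1a4 (6.37), Mfsd2a (6.21), Abcb1a (5.43), Flt1 (4.62), Ramp2 (4.58), Pdgfrb (4.18), Esam (3.93), Eng (3.19), Tek (3.16), Pecam1 (2.80), Cdh5 (2.48), Ocln (2.47) and Sox18 (2.06 CPM per kb). At the low end were Tie1 (1.78), Kdr (1.47), Nos3 (1.35), Apold1 (0.902), Emcn (0.880), Abcc9 (0.854), Vwf (0.693), and Sox17 and Anpep, both at 0.552 CPM per kb. The median over all tested genes with an exon length was 4.73 CPM per kb, so 14 of the 33 members lay above it.

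**Figure D1:**
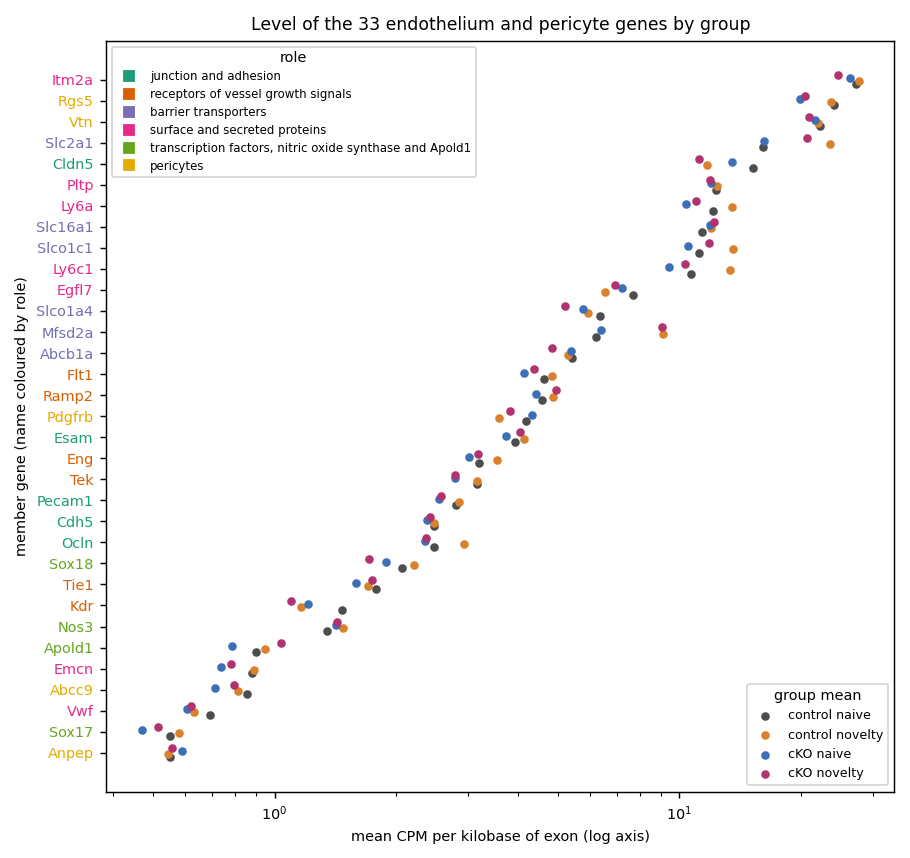
Mean level of each of the 33 genes in CPM per kilobase of exon (log axis), with 1 point per group and gene names coloured by role. Itm2a, Rgs5 and Vtn stand highest and Sox17 and Anpep lowest, and the group means differ clearly from each other only in a few genes such as Mfsd2a and Slc2a1.

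Variation between libraries of the same group was modest for most members. The coefficient of variation within groups had a median of 10.8% over the members, from 7.41% for Egfl7 to 27.9% for Anpep, against 8.71% for the 10977 tested genes in the same range of levels. Part of it was shared. In cKO naive library 5, 19 of the 33 genes had their lowest level of the group, and their summed level was 660 CPM against 745 to 817 CPM in the other 5 libraries. Control novelty library 5 was lowest of its group for 18 of the 33 genes and cKO novelty library 7 for 16, while control novelty library 4 was highest for 14 and cKO novelty library 2 for 13.

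**Figure D2:**
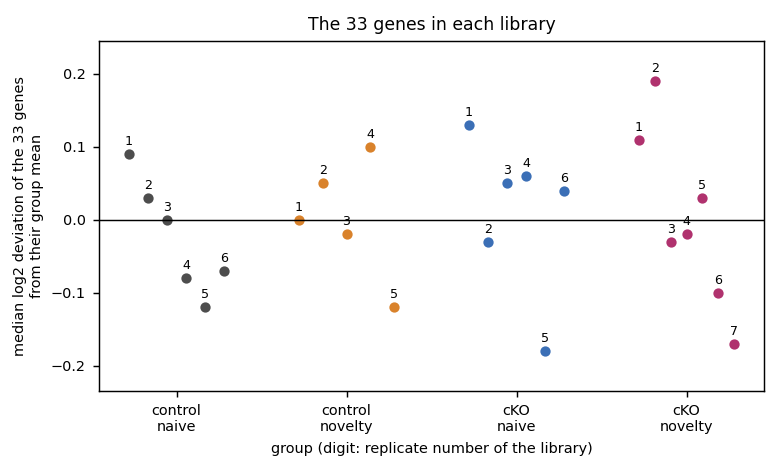
Median over the 33 genes of the log2 deviation of each library from its group mean, by group, with the replicate number beside each point. Library 5 of cKO naive (-0.18) and library 7 of cKO novelty (-0.17) are lowest and library 2 of cKO novelty (0.19) is highest.

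The first question was how novelty exposure changed vascular transcripts in control mice. Of the 6 carriers and pumps of the blood-brain barrier, 4 had a log2 fold change above 0 and 2 below 0. The rise passed the threshold for 2 of them: Slc2a1 by 1.44-fold and Mfsd2a, which moves lysophosphatidylcholine carrying omega-3 fatty acids into brain and holds down transcytosis, by 1.46-fold. These were the 2 members of 33 that passed (adjusted p under 0.05 over all genes tested), where 1.02% of all 16100 genes tested rose and 0.199% fell. No member fell past the threshold. The authors' deposited table for this comparison had 5 members with an adjusted p under 0.05, these 2 and Ly6c1 (log2 0.3239, adjusted p 0.003697), Slco1c1 (0.2796, 0.008314) and Pdgfrb (-0.2164, 0.029), for which edgeR's adjusted p was 0.0624, 0.0677 and 0.108. The share of all genes called in that table is not given here, so the 5 have no background beside them. DESeq2, run here on the same libraries, called 4 members higher and 0 lower. Of the 26097 genes with a p-value it called 304 higher and 70 lower. Genes that DESeq2's own filter on mean counts sets aside have no adjusted p, so the share among genes it could call may be larger. In edgeR the median log2 fold change over the members was 0.03, with 20 of 33 above 0, and over all genes it was -0.01.

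Slc2a1 (chr4:119108711-119137330, GRCm38, plus strand) was at 42.9 CPM in the lowest, 59.1 in the median and 63.2 in the highest of the 6 control naive libraries, and at 76.8, 81.7, 73.0, 89.6 and 91.1 CPM in the 5 control novelty libraries. Every novelty library lay above every naive one. The log2 fold change was 0.53 (SE 0.09, adjusted p = 0.00544), and it passed in all 11 fits that left out 1 library. Mfsd2a (chr4:122946850-122961188, minus strand) went from 12.7, 13.9 and 15.3 CPM (lowest, median and highest naive library) to 21.9, 20.3, 18.3, 19.5 and 22.7 CPM, again with no overlap. Its log2 fold change was 0.55 (SE 0.07, adjusted p = 0.000950), and it too passed in all 11 such fits.

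The same 2 carriers passed in the cKO mice, which share no library with the control comparison. Here 2 of 33 members rose and none fell, beside 1.92% of 16339 genes tested that rose and 0.484% that fell. In the 6 cKO naive libraries Mfsd2a had 13.0 CPM at the lowest, 14.4 at the median and 15.9 at the highest, and in the 7 cKO novelty libraries 16.4, 19.8 and 23.1 CPM. The groups did not overlap, and the log2 fold change was 0.49 (SE 0.08, adjusted p = 0.00239). Slc2a1 had 50.5, 56.8 and 62.9 CPM in cKO naive and 62.2, 70.5 and 82.1 CPM in cKO novelty libraries, so that 6 of the 7 novelty libraries exceeded the highest naive one. Its log2 fold change was 0.34 (SE 0.07, adjusted p = 0.0113), with 0.19 among libraries numbered 1 to 3 in the labels and 0.46 among those numbered 4 and above, a split taken over from an earlier analysis of these data, to which the labels give no meaning. Both genes passed in all 13 fits without 1 library. Neither passed among libraries numbered 1 to 3, which hold fewer samples (adjusted p = 0.506 for Slc2a1 and 0.376 for Mfsd2a). Among those numbered 4 and above Mfsd2a passed and Slc2a1 did not (adjusted p = 0.0535). In control mice, too, neither passed among libraries numbered 1 to 3 (adjusted p = 0.184 for Slc2a1 and 0.0773 for Mfsd2a).

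The 2 genes lie 3810 kb apart on chromosome 4 and their promoters are shown because both moved together. The 250 bases before the RefSeq start (GRCm38.p6, 5′ to 3′ on the gene's strand) are chr4:119108495-119108744, plus strand, for Slc2a1 and chr4:122961189-122961438, minus strand, for Mfsd2a. Capitals mark matches, on either strand, of TATAAA for the TATA box, GGGCGG for the GC box, CCAAT for the box of that name, or ACGTG for the core of the hypoxia response element.
Slc2a1: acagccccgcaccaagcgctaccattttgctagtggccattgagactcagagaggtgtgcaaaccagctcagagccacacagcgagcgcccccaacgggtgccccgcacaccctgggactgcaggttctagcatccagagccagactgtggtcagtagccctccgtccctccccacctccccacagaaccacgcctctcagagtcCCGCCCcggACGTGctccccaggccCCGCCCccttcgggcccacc
Mfsd2a: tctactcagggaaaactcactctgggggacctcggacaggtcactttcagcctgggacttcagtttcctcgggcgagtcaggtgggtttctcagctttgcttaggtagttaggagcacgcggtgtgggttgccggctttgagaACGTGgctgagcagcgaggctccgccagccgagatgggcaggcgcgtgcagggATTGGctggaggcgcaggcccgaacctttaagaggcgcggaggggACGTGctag
ACGTG occurs in both windows, at 36 to 32 bases before the start of Slc2a1, and at 107 to 103 and 9 to 5 bases before that of Mfsd2a. It is found in 4 of the 23 member windows that the RefSeq table holds (with Apold1 and Slc16a1) and in 16.6% of all 32841 windows of that length, so that its presence in both is a description of the letters and no more. GGGCGG occurs at 45 to 40 and 20 to 15 bases before the start of Slc2a1 and not in the Mfsd2a window, and CCAAT has 1 match in the latter and none in the former. Of the 23 member windows 10 hold GGGCGG, 8 hold CCAAT and 4 hold TATAAA, beside 32.7%, 33.9% and 12.4% of all windows. The other 8 motifs searched, which also may overlap each other and are not in capitals, were TGACG (core of the cAMP response element, 3 member windows, 17.8% of all), TGTTCT (glucocorticoid receptor half-site, 2 and 16.1%), ACAAAG (SOX site, 4 and 16.5%), TGTTTAC (forkhead site, 1 and 3.2%), TTCNNNGAA (interferon gamma activated site, 1 and 7.0%), TGANTCA (AP-1 site, 0 and 6.8%), CCGGAAG (ETS site, 0 and 6.9%) and the CArG box (0 and 1.5%). None of these 8 is in the window of Slc2a1 or of Mfsd2a.

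Among the other 4 carriers and pumps, Slco1c1, which carries thyroxine, had a smaller difference in the same direction. It was at 50.7, 56.9 and 68.9 CPM (lowest, median, highest) in control naive and at 73.0, 77.7, 66.9, 67.4 and 67.5 CPM in control novelty libraries, of which 2 exceeded the highest naive one. The log2 fold change was 0.28 (SE 0.07, adjusted p = 0.0677). In cKO mice it was at 50.2, 52.7 and 62.5 CPM against 53.3, 61.1 and 65.7 CPM, with a log2 fold change of 0.16 (SE 0.06, adjusted p = 0.186). Averaged over genotypes in the fit of all 24 libraries, the log2 fold change of Slco1c1 was 0.22 (SE 0.05) and passed (adjusted p = 0.00264), also without any 1 of the 24 libraries. The remaining 3 did not pass in any novelty comparison: averaged over genotypes, the log2 fold change was 0.05 for Slc16a1, the monocarboxylate carrier of lactate and ketone bodies, -0.12 for the organic anion carrier Slco1a4, and -0.09 for the efflux pump Abcb1a. Abcb1a had a log2 fold change of -0.16 in cKO (SE 0.07, adjusted p = 0.296). Of all 50-base words of its transcripts 22.53% also stand in other genes, mostly its copy Abcb1b, which was at 4.18 to 6.04 CPM in group means, so reads of both may be undercounted.

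The fit averaged over genotypes uses the libraries of both pairwise comparisons and is not independent of them. In it 4 of 33 members rose, beside 4.43% of the 16744 genes tested, and 2 fell, beside 2.13%. Mfsd2a (log2 0.52, SE 0.06, adjusted p = 2.84e-07), Slc2a1 (0.44, SE 0.06, adjusted p = 1.12e-05) and Slco1c1 were joined by Ly6c1, a GPI-anchored surface protein of brain endothelium (0.23, SE 0.05, adjusted p = 0.00378). Thus 3 of the 6 barrier carriers and pumps rose, 1 of the 7 other surface and secreted proteins rose, and 1 of 5 junction genes and 1 of 5 pericyte genes fell. None of the 6 growth signal receptors and none of Sox17, Sox18, Nos3 and Apold1 passed. In the authors' deposited tables the log2 fold change of Ly6c1 was 0.3239 in control (adjusted p 0.003697) and 0.1322 in cKO mice (adjusted p 0.3373). In edgeR Ly6c1 did not pass in either genotype alone, and its interaction did not pass. Ly6c1 did not pass among libraries numbered 4 and above alone (log2 0.19, adjusted p = 0.255). Slco1c1 did not pass among those numbered 1 to 3 alone (log2 0.22, adjusted p = 0.104). These parts hold fewer samples. The median over the members was 0.03, and over all genes -0.01.

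Cldn5 was one of the 2 genes that fell. Its level was 16.7, 21.9 and 24.7 CPM in control naive (lowest, median, highest) and 18.0, 18.1, 15.1, 19.7 and 12.1 CPM in control novelty libraries. In cKO naive libraries it was 15.8, 19.7 and 22.8 CPM and in cKO novelty libraries 10.3, 15.9 and 19.8 CPM. The groups overlapped in both genotypes, with all 5 control novelty libraries below the control naive median and 6 of 7 cKO novelty libraries below the cKO naive one. The log2 fold change averaged over genotypes was -0.32 (SE 0.09, adjusted p = 0.0338), made up of -0.38 in control (SE 0.12, adjusted p = 0.196) and -0.28 in cKO mice (SE 0.12, adjusted p = 0.332). The call was close to the threshold: it held in 12 of the 24 fits without 1 library, with adjusted p from 0.0161 to 0.0685, and the difference was -0.17 among libraries numbered 1 to 3 and -0.49 among the others. It was lost without any 1 of control naive libraries 1, 4, 5 and 6, control novelty libraries 3 and 5, cKO naive libraries 1, 2, 4 and 6, and cKO novelty libraries 4 and 6.

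The gene for the platelet-derived growth factor receptor of pericytes, Pdgfrb, was the other that fell. It was at 19.9, 23.3 and 24.3 CPM in control naive and at 21.1, 19.1, 20.0, 19.2 and 18.9 CPM in control novelty libraries, 3 of which lay below the lowest naive one. In cKO mice it was at 17.6, 24.7 and 26.2 CPM naive and at 17.8, 19.7 and 24.9 CPM after novelty, with overlap. Averaged over genotypes its log2 fold change was -0.20 (SE 0.06, adjusted p = 0.0382), and it passed in 7 of the 24 fits that left out 1 library, with adjusted p from 0.00256 to 0.0757. The exceptions, which keep the call, were the fits without any 1 of control naive libraries 2 and 6, control novelty library 1, cKO naive library 5 and cKO novelty libraries 1, 2 and 5. The other 4 pericyte genes were nearer to 0 on average: Rgs5, a regulator of G-protein signalling (0.01), Abcc9, a subunit of the ATP-sensitive potassium channel (0.04), Vtn (-0.04) and Anpep, a membrane aminopeptidase (-0.05). Of 15 tested genes of other mural and smooth muscle cells, among them Acta2, Cspg4, Notch3 and Kcnj8, 0 passed in edgeR's quasi-likelihood test, and their median was -0.09, with 12 below 0. Of 9 genes of vascular and meningeal fibroblasts 0 passed either, and their median was -0.13, with 9 below 0 (57.0% of all genes were below 0).

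**Figure D3:**
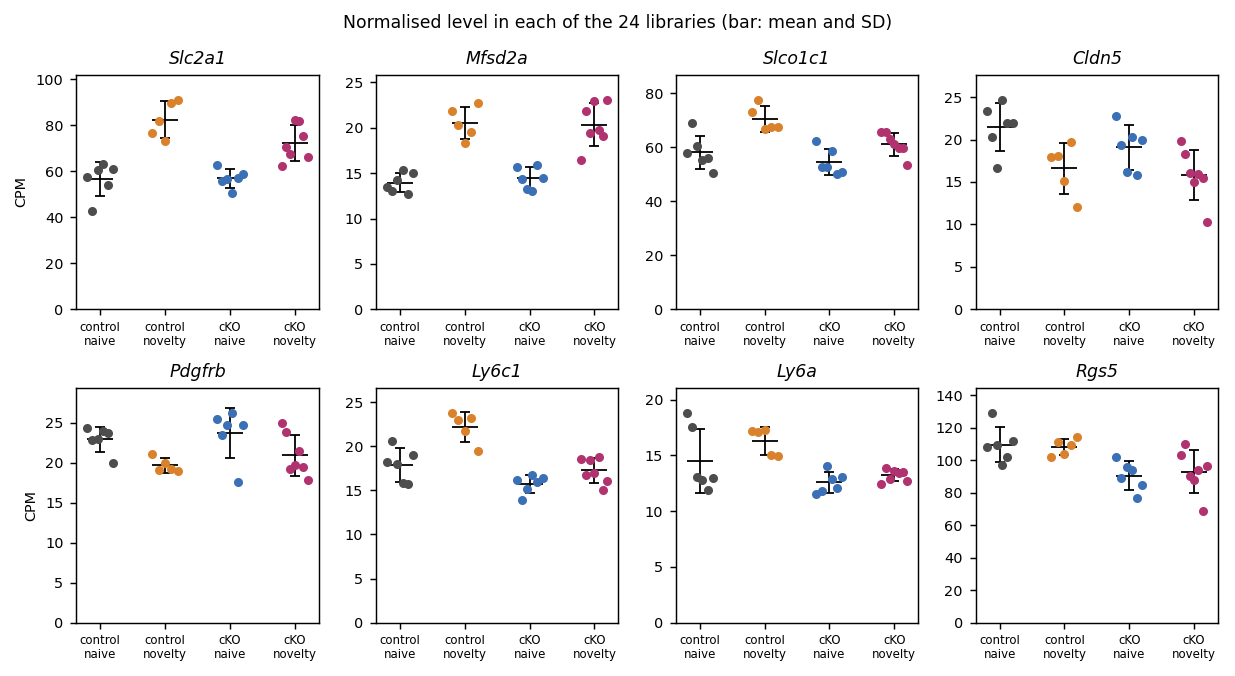
CPM in each of the 24 libraries for the 8 members that passed in at least 1 comparison, by group, with the mean and SD as bars and each axis starting at 0. Slc2a1 and Mfsd2a are higher after novelty in both genotypes, whereas Ly6c1, Ly6a and Slco1c1 of cKO novelty libraries lie below every control novelty library.

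The other 4 junction and adhesion genes did not pass with novelty. Cdh5 (VE-cadherin), Esam and Pecam1, which hold endothelial cells together, had log2 fold changes of 0.01, 0.09 and 0.02 averaged over genotypes. Ocln, the tight junction protein occludin, was at 8.53 to 14.1 CPM in control naive and 13.6, 12.7, 11.5, 13.2 and 10.9 CPM in control novelty libraries (log2 0.26, SE 0.12, adjusted p = 0.417), and its log2 fold change in cKO mice was -0.00 (SE 0.13, adjusted p = 0.999).

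Receptors of vessel growth signals did not pass in any novelty comparison. Kdr, the main receptor of vascular endothelial growth factor, had the lowest value: its level was 11.9, 12.5 and 15.3 CPM in control naive and 9.35, 12.9, 10.7, 11.1 and 8.33 CPM in control novelty libraries, 4 of which lay below the lowest naive one (log2 -0.33, SE 0.11, adjusted p = 0.207). In cKO the difference was -0.14 (SE 0.16, adjusted p = 0.768). Its decoy and partner receptor Flt1 had 0.08 averaged over genotypes, the angiopoietin receptor Tek and its relative Tie1 0.01 and 0.03, the TGF-beta coreceptor Eng 0.11, and Ramp2, through which adrenomedullin signals, 0.13 (adjusted p = 0.211). Of the 50-base words of Ramp2, 30.66% are shared with the neighbouring gene Vps25, so that reads there may be counted as ambiguous.

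Apold1, an endothelial gene known for induction by neuronal activity and ischaemia, had 0.41 in cKO mice (SE 0.15, adjusted p = 0.183) and 0.12 in control mice (SE 0.16, adjusted p = 0.899). It was at 2.12, 2.87 and 3.40 CPM in cKO naive and 2.93, 3.39 and 5.27 CPM in cKO novelty libraries, 3 of 7 above the highest naive one. In cKO libraries numbered 1 to 3 the difference was 0.08 and in the others 0.61. The transcription factors Sox17 and Sox18, which act in vessel development, and Nos3, the endothelial nitric oxide synthase, had values of 0.10, -0.03 and 0.07 averaged over genotypes. Among the surface and secreted proteins not yet named, Ly6a had 0.12, Emcn 0.06, Vwf -0.05, Itm2a -0.04 and Pltp -0.00, and Egfl7, a secreted factor of endothelium, had -0.15 (SE 0.05, adjusted p = 0.0608).

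Genes outside the list add to this description. They come from lists of known vascular biology. Of 13 tested genes of endothelial activation and response to blood flow, 2 rose in control mice (1.02% of all genes did), and in the average over genotypes 4 rose and 1 fell (median 0.03), beside 4.43% and 2.13% of all genes. Klf2, the transcription factor induced by laminar flow, rose from 1.87 ± 0.299 to 3.24 ± 0.308 CPM in control mice (log2 0.80, SE 0.13, adjusted p = 0.00625). Plat, which encodes tissue plasminogen activator and is also made by neurons, rose from 36.0 ± 1.61 to 42.7 ± 1.57 CPM in control (log2 0.24, SE 0.05, adjusted p = 0.0200) and from 35.8 ± 4.99 to 47.5 ± 4.43 CPM in cKO mice (log2 0.41, SE 0.08, adjusted p = 0.0121). Of 15 genes of the Wnt pathway that maintains the barrier, 1 passed in control mice: Fzd4, the receptor of norrin, rose from 7.26 ± 0.386 to 9.18 ± 0.250 CPM (log2 0.33, SE 0.07, adjusted p = 0.0349). Of 18 ligands and coreceptors of vessel growth, Pdgfb rose in cKO mice from 22.9 ± 2.20 to 28.1 ± 1.22 CPM (log2 0.29, SE 0.06, adjusted p = 0.0146), and the other 17 did not pass there (1.92% of all genes rose). Averaged over genotypes, the 4 of these genes with the smallest p were Plat, Klf2 (0.69), Fzd4 (0.29) and Pdgfb (0.25), and 5 of 30 further endothelial genes passed, 2 higher and 3 lower, with a median of 0.00. Of the 15 Wnt genes, 1 rose and 2 fell in that average in edgeR: Apcdd1 (-0.27, adjusted p = 0.00514) and Axin2 (-0.18, adjusted p = 0.0412). Of the 18 ligands and coreceptors, 1 rose and 1 fell, Dll4 (-0.43, adjusted p = 0.0323). The medians of both lists were -0.00.

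Astrocytes hold part of some of these carriers, and their own markers were compared in the same way. Over the 9 astrocyte genes tested, 0 passed with novelty in edgeR in the control, cKO or averaged comparison, and their median log2 fold changes were 0.03, -0.01 and 0.01. The summed astrocyte level was 5728 to 7207 CPM in control naive, 6293 to 6731 in control novelty, 6079 to 6362 in cKO naive and 5422 to 6670 CPM in cKO novelty libraries. Red blood cell genes summed to 20.5 to 26.4, 23.2 to 34.8, 20.9 to 55.3 and 16.6 to 42.1 CPM in the same order of groups, with Slc4a1 below 0.1 CPM at the median of all 24 libraries. Some other lists lay further from 0 with novelty in cKO mice, with 0 genes passing in edgeR. Medians were -0.41 for red cells, -0.31 for fibroblasts, -0.23 for dentate granule neurons and -0.10 for oligodendrocytes. In control mice these were 0.17, 0.01, 0.17 and -0.01. Microglia, pyramidal neurons, interneurons and choroid plexus lay between -0.04 and 0.01 in cKO mice. What part these cells have in the vascular values was not tested. As a percentage of the summed CPM of the other 32 members, Slc2a1 was at 7.61 ± 1.26% in control naive, 10.8 ± 1.08% in control novelty, 8.24 ± 0.763% in cKO naive and 10.4 ± 1.50% in cKO novelty libraries. For Mfsd2a the corresponding percentages were 1.77 ± 0.188%, 2.49 ± 0.255%, 1.98 ± 0.260% and 2.72 ± 0.423%.

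**Figure D4:**
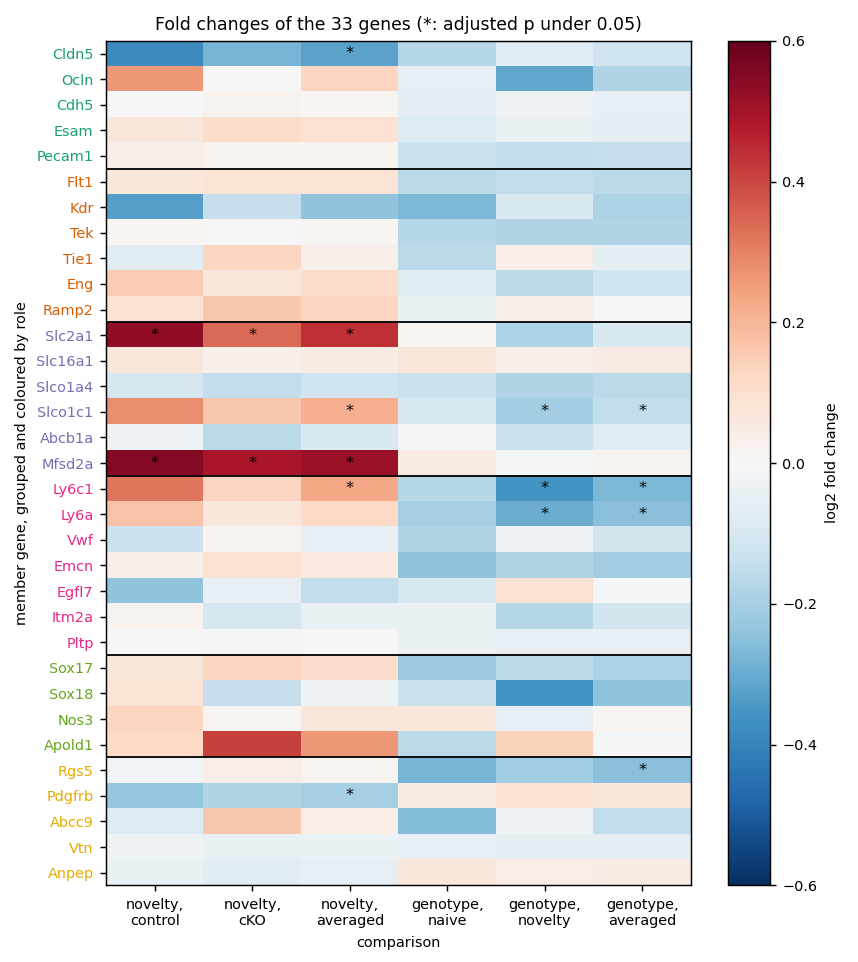
Log2 fold change of each of the 33 genes, in rows grouped by role, in 6 comparisons (red higher after novelty or in cKO, blue lower), with an asterisk where the adjusted p was under 0.05. Asterisks for novelty fall mostly on barrier carriers, and those for genotype on Ly6c1, Ly6a, Slco1c1 and Rgs5.

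The comparison of genotypes in naive mice asked whether vascular transcripts differed between cKO and control mice at rest. None of the 33 members passed in edgeR, where 0.306% of 16360 genes tested were higher and 0.495% lower in cKO. An unadjusted p under 0.05 was found for 3 members and for 2223 of the 16360 genes. DESeq2 called 1 member, Rgs5, and of the 26449 genes with a p-value it called 173 higher and 281 lower. The median log2 fold change over the members was -0.09, with 27 of 33 below 0, and that over all genes 0.00, with 48.9% below 0. The 3 smallest p-values belonged to Abcc9, Rgs5 and Ly6c1. Abcc9 was at 7.01, 7.13 and 7.37 CPM in control naive and 5.59, 5.91 and 6.41 CPM in cKO naive libraries, with no overlap (log2 -0.26, SE 0.07, adjusted p = 0.0815). Rgs5 was at 97.1, 109 and 129 CPM in control naive and 76.7, 91.4 and 102 CPM in cKO naive libraries, of which 5 of 6 lay below the lowest control one (log2 -0.28, SE 0.07, adjusted p = 0.0892). In the authors' deposited table for this comparison Rgs5 had a log2 fold change of -0.2708 and an adjusted p of 0.02249. Ly6c1 had a log2 fold change of -0.17 (SE 0.07, adjusted p = 0.301).

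After novelty, 3 of the 33 members were lower in cKO than in control mice and none was higher, beside 2.40% lower and 2.13% higher among the 16188 genes tested. Ly6c1 (chr15:75045017-75048837, minus strand) had 23.8, 23.0, 21.8, 23.2 and 19.5 CPM in the control novelty libraries and 15.1, 17.0 and 18.8 CPM at the lowest, median and highest of the 7 cKO novelty libraries. No library of one group reached the other. The log2 fold change was -0.36 (SE 0.07, adjusted p = 0.00561), and it was -0.35 both among libraries numbered 1 to 3 and among the others. Ly6a, a related surface protein whose gene lies 47.4 kb away (chr15:74994878-74997634, minus strand), had 17.2, 17.1, 17.3, 15.0 and 14.9 CPM in control and 12.4, 13.4 and 13.9 CPM in cKO libraries, again without overlap. Its log2 fold change was -0.30 (SE 0.06, adjusted p = 0.0100), with -0.39 among libraries numbered 1 to 3 and -0.16 among the others. Both passed in all 12 fits without 1 library. Neither passed within either part of the libraries, which hold fewer samples (adjusted p = 0.133 and 0.203 for Ly6c1, 0.115 and 0.544 for Ly6a).

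Reads of the 2 Ly6 genes may be undercounted, since reads with several positions stayed out of the counts. Of the 50-base words of Ly6c1 transcripts 32.77%, and of those of Ly6a 18.97%, also stand in another gene, and some are shared between the 2. The near copies Ly6c2 and Ly6i had 0 CPM in every control library and reached at most 0.164 and 0.0840 CPM in any cKO library, levels near the floor. The window of 250 bases before the RefSeq start of Ly6c1 (chr15:75048838-75049087, minus strand, GRCm38.p6, with the same motifs in capitals) is shown because, unlike those of Slc2a1 and Mfsd2a, it holds TATAAA, at 143 to 138 bases before the start, and no match to GGGCGG or to ACGTG.
Ly6c1: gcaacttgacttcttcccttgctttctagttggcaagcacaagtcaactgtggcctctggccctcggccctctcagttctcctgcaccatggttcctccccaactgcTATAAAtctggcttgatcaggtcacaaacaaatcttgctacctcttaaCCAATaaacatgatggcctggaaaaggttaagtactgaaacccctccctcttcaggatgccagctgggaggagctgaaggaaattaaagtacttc
The window has a GC content of 48.4%, against 66.4% for Slc2a1 and 61.6% for Mfsd2a, and the median over the 23 member windows is 59.6% (52.4% over all windows).

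Slco1c1 was the third gene, at 73.0, 77.7, 66.9, 67.4 and 67.5 CPM in control novelty and 53.3, 61.1 and 65.7 CPM in cKO novelty libraries, with no overlap (log2 -0.21, SE 0.05, adjusted p = 0.0422). This call held in 5 of the 12 fits without 1 library, and its adjusted p rose to between 0.0605 and 0.14 without any 1 of control novelty libraries 1, 2 and 5 or cKO novelty libraries 4, 5, 6 and 7. It was also lost with upper-quartile scaling in place of TMM (adjusted p = 0.0519) and within either part of the libraries (adjusted p = 0.353 and 0.24), whereas in the authors' deposited table Slco1c1 had an adjusted p of 0.00994. Ocln had 10.9 CPM at the lowest of 5 control libraries, above 6 of the 7 cKO ones (log2 -0.31, SE 0.10, adjusted p = 0.0900), and the authors' deposited table gave it an adjusted p of 0.03777. Sox18 had -0.36 (SE 0.12, adjusted p = 0.0938), with 3.61, 3.51, 3.14, 4.35 and 3.31 CPM in control and 2.28, 2.80 and 3.19 CPM in cKO libraries. Mfsd2a (-0.01) and Slc2a1 (-0.19, SE 0.08, adjusted p = 0.181) did not pass. The members' median was -0.09, with 26 of 33 below 0 (all genes 0.01, with 47.3% below 0).

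Averaged over both exposures, 4 of the 33 members were lower in cKO and none was higher, where 6.32% of the 16744 genes tested were lower and 5.72% higher. Ly6c1 had a log2 fold change of -0.27 (SE 0.05, adjusted p = 0.000657), Rgs5 of -0.25 (SE 0.06, adjusted p = 0.00792), Ly6a of -0.25 (SE 0.06, adjusted p = 0.00855) and Slco1c1 of -0.15 (SE 0.05, adjusted p = 0.0381). The first 3 passed in all 24 fits without 1 library. Slco1c1 passed in 15 and did not without any 1 of control naive libraries 2 and 3, control novelty libraries 1 and 2, cKO naive libraries 2, 3, 5 and 6, and cKO novelty library 7, with adjusted p up to 0.0902, nor with upper-quartile scaling (0.0584). Within the split of library numbers, the difference was -0.33 and -0.19 for Ly6c1, -0.39 and -0.08 for Ly6a, and -0.17 and -0.33 for Rgs5, in libraries numbered 1 to 3 and in the others. Among those numbered 4 and above none of the 4 passed (adjusted p = 0.222 for Ly6c1, 0.581 for Ly6a, 0.0602 for Rgs5 and 0.298 for Slco1c1). Among those numbered 1 to 3, Rgs5 (0.168) and Slco1c1 (0.182) did not pass. These parts hold fewer samples.

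Most members lay on the same side of 0, whether they passed or not. Part of the variation between libraries was shared among members, so their directions are not independent of each other. The 30 further endothelial genes had a median of -0.03, with 18 below 0. Of the 33 members 28 had a log2 fold change below 0 in this average, and the median was -0.11, against 0.01 and 48.0% below 0 over all genes. All 5 junction and adhesion genes were below 0 (-0.18 for Ocln to -0.05 for Cdh5), as were all 7 surface and secreted proteins (-0.27 for Ly6c1 to -0.01 for Egfl7). The receptors ranged from -0.19 for Kdr through -0.18 for Tek, -0.16 for Flt1, -0.12 for Eng and -0.06 for Tie1 to -0.00 for Ramp2. Emcn, a sialomucin of endothelium, had -0.21 (SE 0.09, adjusted p = 0.144) and Sox18 -0.24 (SE 0.09, adjusted p = 0.0744). Above 0 were Pdgfrb (0.07), Slc16a1 (0.05), Anpep (0.05), Mfsd2a (0.02) and Nos3 (0.01). Pericyte genes were thus not uniform, with Rgs5 at -0.25 and Abcc9 at -0.15 (SE 0.06, adjusted p = 0.118) but Vtn at -0.06 and Pdgfrb above 0.

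**Figure D5:**
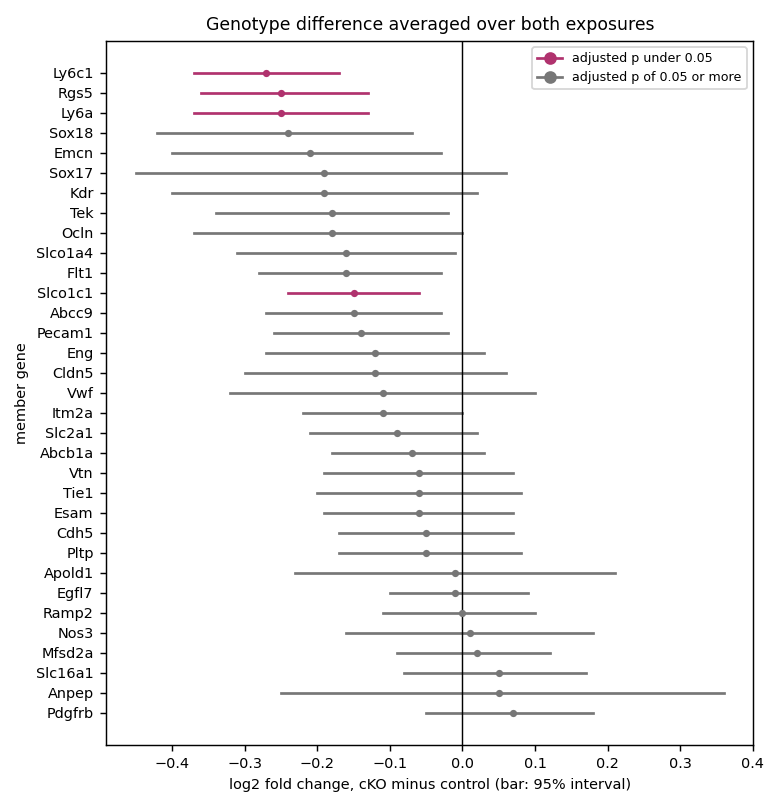
Log2 fold change of cKO over control averaged over both exposures for the 33 genes, with bars for the 95% interval and the 4 genes with adjusted p under 0.05 in magenta. Of the 33 genes 28 lie below 0, and most bars reach or cross it.

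Set against the other members, these differences were smaller for Ly6c1, Ly6a and Rgs5, and for Slco1c1 the direction in naive mice turned. As a percentage of the summed CPM of the other 32, Ly6c1 was at 2.27 ± 0.175% in control naive and 2.15 ± 0.207% in cKO naive libraries, and at 2.70 ± 0.178% and 2.29 ± 0.171% after novelty. For Ly6a the percentages were 1.83 ± 0.268% and 1.71 ± 0.167% naive, and 1.96 ± 0.177% and 1.74 ± 0.139% after novelty, with ranges of 1.72 to 2.15% and 1.53 to 1.96% that overlap, as do those of Ly6c1 after novelty (2.43 to 2.92% and 1.98 to 2.51%). For Rgs5 they were 15.8 ± 1.40% and 13.7 ± 0.679% naive, and 14.6 ± 0.876% and 13.6 ± 1.57% after novelty. For Slco1c1 they were 7.79 ± 0.682% in control and 7.86 ± 0.503% in cKO naive libraries, within their spread, and 9.09 ± 0.616% and 8.60 ± 0.460% after novelty.

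The other vascular lists were compared by genotype in the same way. Of 30 further endothelial genes, 1 was lower after novelty, a share near the 2.40% of all genes that were lower: Cd34, a sialomucin of endothelium and progenitor cells, was at 81.9 ± 6.36 CPM in control and 67.7 ± 4.30 in cKO libraries (log2 -0.28, SE 0.05, adjusted p = 0.00852). Of the 15 Wnt genes of the barrier 1 was higher, beside 2.13% of all genes: the ligand Wnt7b, which neurons and glia supply, was higher in cKO after novelty (35.2 ± 1.92 against 42.7 ± 2.57 CPM, log2 0.28, SE 0.05, adjusted p = 0.00580). In the average over exposures, 1 of these 30 endothelial genes was higher and 4 were lower, beside 5.72% and 6.32% of all genes, and the 4 vascular genes outside the members with the smallest p were Wnt7b (0.24), Figf (0.63, SE 0.16, adjusted p = 0.00893), the transferrin receptor gene Tfrc (-0.25, SE 0.06, adjusted p = 0.00947) and Cd34 (-0.18, SE 0.05, adjusted p = 0.00996). The 15 tested mural genes had a median of -0.01 and the 13 of endothelial activation -0.04.

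Markers of other cells moved with genotype as well. In the average over exposures 5 of 7 oligodendrocyte genes were lower in cKO (median -0.25, beside 6.32% of all genes lower), their summed level being 4910 to 5184 CPM in control naive, 4559 to 5551 in control novelty, 4097 to 5215 in cKO naive and 3151 to 6060 CPM in cKO novelty libraries. Camk2a and Mpped1 of 8 pyramidal neuron genes (median -0.16), 3 of 7 interneuron genes (median -0.11), 1 of 6 dentate granule genes (median -0.26) and S100b of 9 astrocyte genes (median -0.05) were also lower, while 0 of 8 microglial genes passed in edgeR (median 0.05). Of 9 fibroblast genes, 0 passed (median 0.18), as did 0 of 5 tested red cell genes (median 0.25) and 0 of 5 tested choroid plexus genes (median -0.29). Of the choroid plexus list, Otx2 and Steap1 were below 0.1 CPM at the median of all 24 libraries. The list summed to 116 CPM at the highest and 30.0 CPM at the median of the control naive libraries. What part these cell types have in the vascular values was not tested.

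Whether the novelty response itself differed by genotype was tested as an interaction over all 24 libraries. None of the 33 members passed in edgeR, and 0% of all 16744 genes did. At an unadjusted p under 0.05 there were 0 members in edgeR, beside 688 of all 16744 genes. In DESeq2 there was 1 member, Egfl7 (unadjusted p = 0.0486), beside 792 of 27575 genes. Egfl7 (log2 0.18, SE 0.09), Ly6c1 (-0.19, SE 0.10) and Abcc9 (0.23, SE 0.12) came nearest to the threshold in edgeR. For Slc2a1 the interaction was -0.19, with a 95% interval from -0.42 to 0.03, and for Mfsd2a -0.06. A novelty response of Slc2a1 that is smaller in cKO by up to 0.42 on the log2 scale is therefore within the interval.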

How the data were processed

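Reads of 24 poly(A) RNA libraries were analysed from the tables the authors deposited. These hold raw read counts per Ensembl gene, made, per the submitters' processing notes, with STAR 2.3.0, HTSeq and DESeq2 on GRCm38.p2 (their roles, the annotation release and the strand setting: not given in the sources used here). Their 5 closing entries for unassigned reads stayed out of library sizes and tests: 7.58 to 10.36% of a library's reads fell in no gene and 14.82 to 17.97% had several positions. The kit does not mark strand, so antisense reads cannot be told apart, and the protocols name both paired-end and single-end kits. The authors also deposited 4 comparison tables with a mean normalised count (a signal), a log2 fold change and p-values, used for symbols, coordinates and the values credited to them.

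Counts were tested with edgeR 4.0.16 in R 4.3.3 (robust quasi-likelihood F test, TMM, filterByExpr at a minimum count of 10), with Benjamini-Hochberg adjustment over all genes tested and a threshold of 0.05. Each of 4 pairwise comparisons used its own 2 groups, and averages and the interaction used all 24 libraries. Total assigned reads of 10.7 to 35.8 M set the precision. The code was tested on simulated data. Alternatives were DESeq2 1.42.0, RLE and upper-quartile scaling, no filter, a replicate block, parts of the libraries and leaving out each library. Exon lengths and 50-base words came from GENCODE vM21 (GRCm38), and promoter windows from RefSeq (GRCm38.p6) for 23 of 33 members. All members are named, with values per library for those that passed, and where none passed the 3 with the smallest p. From other lists, up to 4 genes that passed are named per comparison. The members and lists were chosen with earlier results of these data known.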

Additional observations from a re-analysis of the deposited data

Results flagged for a closer look

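Of 132 sets of libraries (33 genes in 4 groups), 9 held 1 library far from the rest, its gap to the nearest other library being large against the range of the group. Chance alone gives about 1 in 20 such sets. In control naive library 1, the highest values were those of Vwf (17.1 CPM, the next at 11.4), Vtn (59.0 CPM, the next at 45.7) and Pecam1 (20.0 CPM, the next at 17.6). Apold1 was highest in control naive library 2 (5.26 CPM, the next at 2.98), and Pdgfrb lowest in control naive library 6 (19.9 CPM, the next at 22.8). In cKO naive library 5, the lowest values were those of Slco1a4 (28.8 CPM, the next at 37.6) and Pdgfrb (17.6 CPM, the next at 23.5). Anpep was highest in cKO naive library 3 (4.57 CPM, the next at 2.41). In control novelty library 5, Emcn was lowest (3.49 CPM, the next at 4.82).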

How the results depend on the processing

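In the 17 cases where a member passed in a comparison, its direction was the same in all alternatives run. Of the members that did not pass, 15 of 31 for novelty in control mice, 9 of 31 in cKO mice, 10 of 33 for genotype in naive mice and 12 of 30 after novelty had differences on opposite sides of 0 in the 2 parts of the libraries (Slco1a4 in control mice -0.33 and 0.20), and 11, 10, 7 and 12 of the same 31, 31, 33 and 30 members changed direction among the fits without 1 library. The count of members that rose with novelty in control mice, 2, became 4 with DESeq2, 4 with no filter on low counts, 4 with the split of library numbers as a term, 0 among libraries numbered 1 to 3, and 2 to 4 without 1 library (4 without control naive library 2), while members that fell went from 0 to between 0 and 1 (1 without control naive library 2 or 6). In cKO mice the count of 2 became 1 among libraries numbered 4 and above and 0 among those numbered 1 to 3. Over all genes in control mice, 164 rose in the main fit, 188 with no filter and 191 with the split as a term. Among libraries numbered 1 to 3 it was 25, and among the others 204. In cKO mice the 314 genes that rose became 12 among libraries numbered 1 to 3 and 63 among the others. Averaged over genotypes, the 2 members that fell became 1 with no filter, 0 in either part of the libraries, and 0 to 3 without 1 library. Over all genes, the 356 that fell became 255 with no filter, 37 among libraries numbered 1 to 3 and 57 among the others. For genotype in naive mice, the 0 members that were lower became 1 with DESeq2 and 1 with the split as a term, where the 81 lower over all genes became 115. After novelty, the 3 members lower in cKO became 0 in either part of the libraries, and averaged over exposures the 4 became 2 among libraries numbered 1 to 3 and 0 among the others. Over all genes, the 389 lower after novelty became 12 among libraries numbered 1 to 3 and 83 among the others. The 1059 lower over all genes in the average over exposures became 234 and 255 in the same parts. These parts hold fewer samples. The members' median interaction, -0.02, was 0.09 among libraries numbered 1 to 3. Over all genes DESeq2, with its own filter in place of edgeR's, called 304 higher and 70 lower for novelty in control (164 and 32 in edgeR) and 173 and 281 for genotype in naive mice (50 and 81).

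With the replicate number as a block, members that rose in cKO mice went from 2 to 1 (Slc2a1 adjusted p = 0.074), beside 314 to 180 over all genes. Those that fell with novelty on average went from 2 to 1, beside 356 to 198 over all genes. Members lower in cKO after novelty went from 3 to 0 (Ly6c1 adjusted p = 0.0528, Ly6a 0.0725, Slco1c1 0.0745), beside 389 to 234 over all genes. Libraries of the same number did not deviate together: their correlations ran from -0.128 to 0.279, and at most 1 pair in a comparison exceeded 0.1, so the numbers are not taken to pair the samples.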
